A study of Homo sapiens with 5 samples.

Results

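Serine proteases cut proteins with an activated serine, and serpins, Kunitz inhibitors and Kazal inhibitors block them. The genes described here are the serpins (without SERPINH1, a collagen chaperone), the kallikreins, the TMPRSS and PRSS proteases, matriptase (ST14), the plasminogen activators and the urokinase receptor, and the inhibitors SPINT1, SPINT2 and SPINK. They were chosen by gene symbol alone, which gave 106 genes on 107 rows, of 18512 genes in the deposited table. Of these, 60 are named as proteases, 45 as inhibitors and 1, PLAUR, is a receptor.

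RNA came from BT474, an established breast cancer line with amplified ERBB2 and luminal features. Persister cells (3 libraries) were what remained after 9 days in 2 µM lapatinib, a HER2 and EGFR kinase inhibitor, renewed every 3 days. Parental cells (2 libraries) were kept in parallel without the drug, and both groups had 0.01% DMSO. The deposited table holds 1 FPKM value per gene and group, a level scaled by depth and by the length of the transcript. All levels given here are therefore group values of the authors, with no SD and none for a single library. Pairs of levels are given in the order parental, then persister. A fall in transcript per cell and a smaller share of cells with the transcript cannot be told apart in such bulk samples. There was no group with a short treatment or with the drug removed, and all cells are of 1 line.

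In epithelia these enzymes form short cascades at the cell surface. Matriptase, a membrane-anchored protease, activates and is activated with prostasin (PRSS8), which is held at the membrane by a lipid anchor. Both are held in check by the Kunitz inhibitors HAI-1 (SPINT1) and HAI-2 (SPINT2). Their known targets include the epithelial sodium channel, pro-HGF, pro-MSP and the receptor PAR2. Kallikreins are secreted proteases encoded side by side on chromosome 19, and several activate each other. Serpins act by a trap in which the protease cuts a loop of the inhibitor and is then locked to it, although some serpins, among them SERPINF1 and SERPINB5, do not inhibit proteases.

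Over all tested members, proteases were more often called higher than lower in persister cells, and inhibitors more often lower. Most of the proteases called higher stayed under 1 FPKM in both groups. A gene was called when the q-value in the authors' deposited table was under 0.05. The table gave a q-value below 1, taken as tested, for 46 of the 106 genes. A gene taken as not tested need not be low, since such genes reach 5076 FPKM over the whole table. Across all 13617 tested genes 69.9% were called, with 30.9% higher and 39.0% lower in persister cells. Of 26 tested proteases, 13 were called higher (50%) and 6 lower (23.1%). Of 19 tested inhibitors, 2 were called higher (10.5%) and 9 lower (47.4%). The difference between these classes was not tested. Every tested gene reached 0.0656 FPKM in 1 or both groups. Of the proteases called higher, KLK5, KLK10, KLK11, PRSS37, PRSS50, TMPRSS6 and TMPRSS7 did so only in persister cells. Of the genes called lower, PRSS1, PRSS2, TMPRSS4, SERPINA5 and SERPINB9 did so only in parental cells. The shares called in each class thus partly follow from which genes were tested.

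The size of most of these differences was small. On the log2(FPKM + 1) scale, persister minus parental, the median was 0.04 for proteases and -0.16 for inhibitors, beside -0.04 for all tested genes. Differences of at least 1 on that scale were called higher in 2 proteases and 0 inhibitors and lower in 3 proteases and 2 inhibitors, where 2.98% of all tested genes were higher and 6.01% lower by that much. Of the 13 proteases called higher, 8 stayed under 1 FPKM in both groups, and 0 proteases were called lower at that level. Of the inhibitors under 1 FPKM, 0 were called higher and 3 lower. Over the whole table, genes under 1 FPKM in both groups had 1053 higher and 470 lower calls. Higher calls thus prevailed among low genes in general. Among genes that reached 1 FPKM in 1 or both groups, 28.8% of 10948 were called higher and 44.2% lower. Of 13 proteases with that minimum, 5 were called higher and 6 lower, with a median of -0.20. Of 11 inhibitors with it, 2 were called higher and 6 lower, with a median of -0.56. The median of all tested genes with that minimum was -0.11. The excess of higher calls among proteases and the direction of their median thus depended on genes with very low values.

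**Figure D1:**
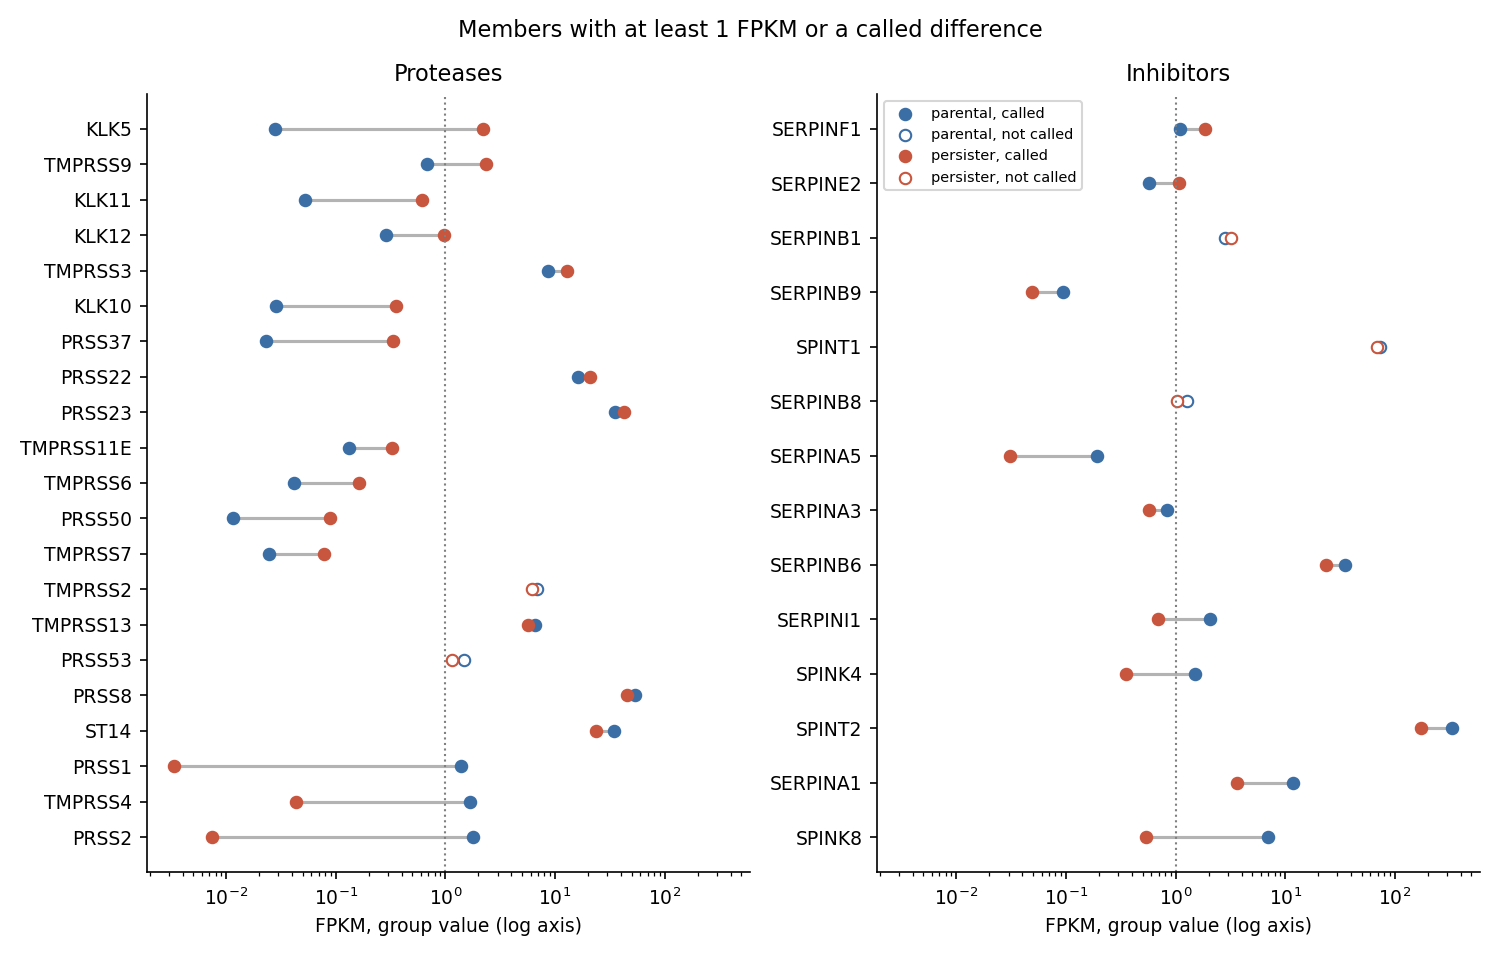
Group values in FPKM (log axis) of the 21 proteases and 14 inhibitors that reached 1 FPKM (dotted line) or were called. Blue points are parental and red points persister cells, filled where the difference was called. Most proteases with long lines to the right lie under 1 FPKM, and SPINT2 has the highest level in both groups.

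Summed over members, protease transcripts were at 172 and 168 FPKM and inhibitor transcripts at 474 and 279 FPKM. The summed inhibitor level was 2.76 times the summed protease level in parental cells and 1.66 times in persister cells. A ratio within a group does not depend on how the groups were scaled to each other. The change came mainly from SPINT2, which made up 70.7% of the inhibitor sum in parental and 61.8% in persister cells. Without SPINT2 the ratio was 0.808 and 0.633. PRSS8, PRSS23, ST14 and PRSS22 together made up 81.6% and 79.1% of the protease sum.

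SPINT2, SPINT1 and PRSS8, of the matriptase axis, had the highest levels of all members in both groups. SPINT2, which encodes HAI-2, fell from 335 to 172 FPKM (log2 difference -0.96), and was the 131st and 183rd most abundant transcript of the 18512 in the 2 groups. SPINT1, which encodes HAI-1, was at 74.0 and 69.4 FPKM and was not called (q = 0.347 in the authors' deposited table). ST14 fell from 34.9 to 23.8 FPKM (log2 difference -0.53). PRSS8 was called lower, from 54.2 to 45.6 FPKM (log2 difference -0.24), but was higher by 0.11 when each group was rescaled to the same FPKM sum. Both inhibitors thus stood above both proteases in each group, and SPINT2 had the largest fall of the 4.

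Relative to the enzymes, transcripts of SPINT1 and SPINT2 changed in opposite directions between the groups. The ratio of SPINT1 to ST14 was 2.12 in parental and 2.91 in persister cells, and that of SPINT1 to PRSS8 was 1.37 and 1.52. The ratio of SPINT2 to ST14 was 9.61 and 7.23, and that of SPINT2 to PRSS8 was 6.19 and 3.78. SPINT2 exceeded SPINT1 by 4.54 times in parental and 2.48 times in persister cells. Relative to ST14, transcripts of one HAI gene were thus higher and those of the other lower in persister cells. These ratios have no replicate check.

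**Figure D2:**
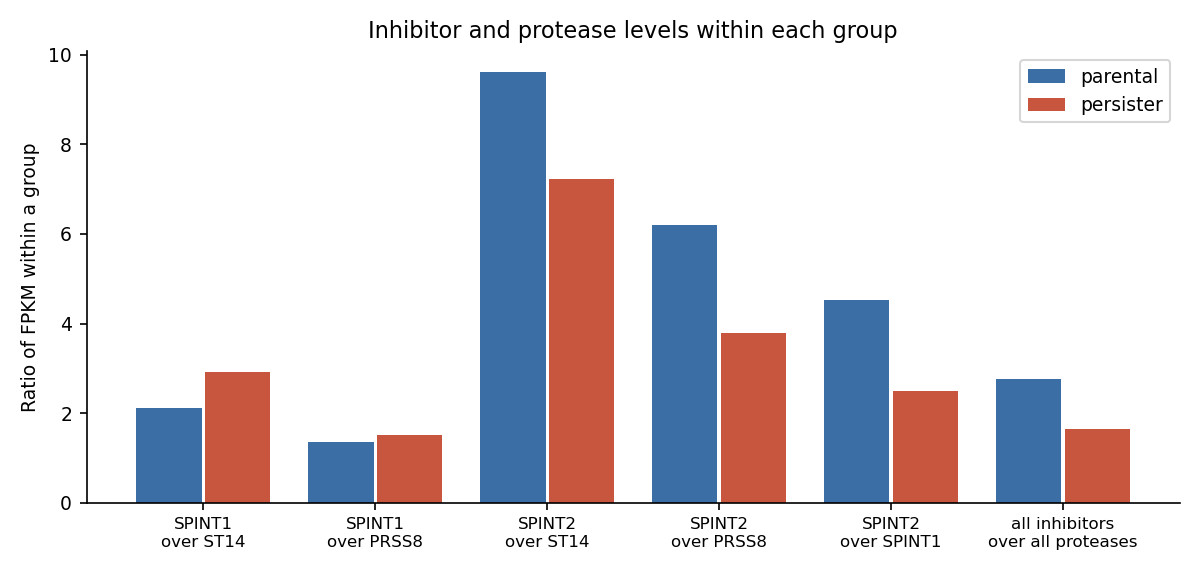
Ratios of FPKM within a group, in parental (blue) and persister (red) cells, with bars from 0. The SPINT2 ratios and the ratio of all inhibitors to all proteases were lower in persister cells, and the SPINT1 ratios were higher.

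Among the other membrane-anchored TMPRSS proteases, 5 were called higher and 2 lower. With ST14 counted in, 10 genes of this family were tested, with 5 called higher and 3 lower. Across all tested genes the shares were 30.9% higher and 39.0% lower. TMPRSS6 and TMPRSS7, both called higher, reached the lowest level of a tested gene, 0.0656 FPKM, only in persister cells. TMPRSS3, known for its part in hearing, rose from 8.69 to 12.8 FPKM (log2 difference 0.51). TMPRSS9, which carries several protease domains in 1 chain, rose from 0.683 to 2.37 FPKM (log2 difference 1.00). Its exons overlap those of TIMM13 on the other strand over 7.23% of their length, and TIMM13, at 37.8 and 26.7 FPKM, was lower in persister cells. Libraries without strand cannot separate the reads of such a pair.

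TMPRSS4, studied for its part in tumour cell invasion, fell from 1.70 to 0.0437 FPKM (log2 difference -1.37). It had the largest fall of this family and went from above 1 FPKM to near 0. TMPRSS13 was called lower, at 6.61 and 5.64 FPKM (log2 difference -0.20), just inside the threshold with a q of 0.0359 in the authors' deposited table, but was higher by 0.12 after rescaling to the same FPKM sum. TMPRSS2, an androgen-regulated protease that also primes viral spike proteins, was at 6.92 and 6.15 FPKM and was not called (q = 0.144 in the authors' deposited table). TMPRSS5 was tested and not called either, at 0.0828 and 0.0756 FPKM. The 3 remaining members that were called higher lay far lower. TMPRSS6, which controls hepcidin in liver, rose from 0.0418 to 0.164 FPKM, TMPRSS7 from 0.0244 to 0.0789 FPKM and TMPRSS11E from 0.131 to 0.328 FPKM. TMPRSS11E stood on 2 rows with the same transcript identifier, and the other row gave 0.131 and 0.278 FPKM, also called higher.

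Kallikreins rose from values near 0, and 4 of the 5 tested were called higher (80.0%, beside 30.9% of all tested genes). Of these, KLK5, KLK10 and KLK11 reached the lowest level of a tested gene, 0.0656 FPKM, only in persister cells. The share called higher thus partly follows from which kallikreins were tested. KLK5, a trypsin-like protease of skin shedding that activates other kallikreins, rose from 0.0280 to 2.22 FPKM (log2 difference 1.65), the largest rise of all members and the 103rd largest of the 13617 tested genes. KLK12 rose from 0.289 to 0.973 FPKM and KLK11 from 0.0520 to 0.611 FPKM, each with a log2 difference of 0.61. KLK10, first described as a gene lost in breast cancer cells, rose from 0.0286 to 0.352 FPKM (log2 difference 0.39). KLK5 was the sole kallikrein to reach 1 FPKM. KLK14 was tested and not called, at 0.0933 and 0.0909 FPKM.

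The other 10 kallikreins were not tested, and none exceeded 0.0619 FPKM in either group. They include the prostate genes KLK2, listed at 0 in both groups, and KLK3, which encodes PSA, at 0.0215 and 0.00182 FPKM. Along the chromosome, KLK10, KLK11 and KLK12 are neighbours, while KLK5 is parted from them by KLK6, KLK7, KLK8 and KLK9, all at most 0.0530 FPKM. The annotation places antisense genes over parts of the exons of KLK5 (12.22%), KLK10 (6.23%) and KLK12 (9.04%), so some of their reads could come from the other strand.

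**Figure D3:**
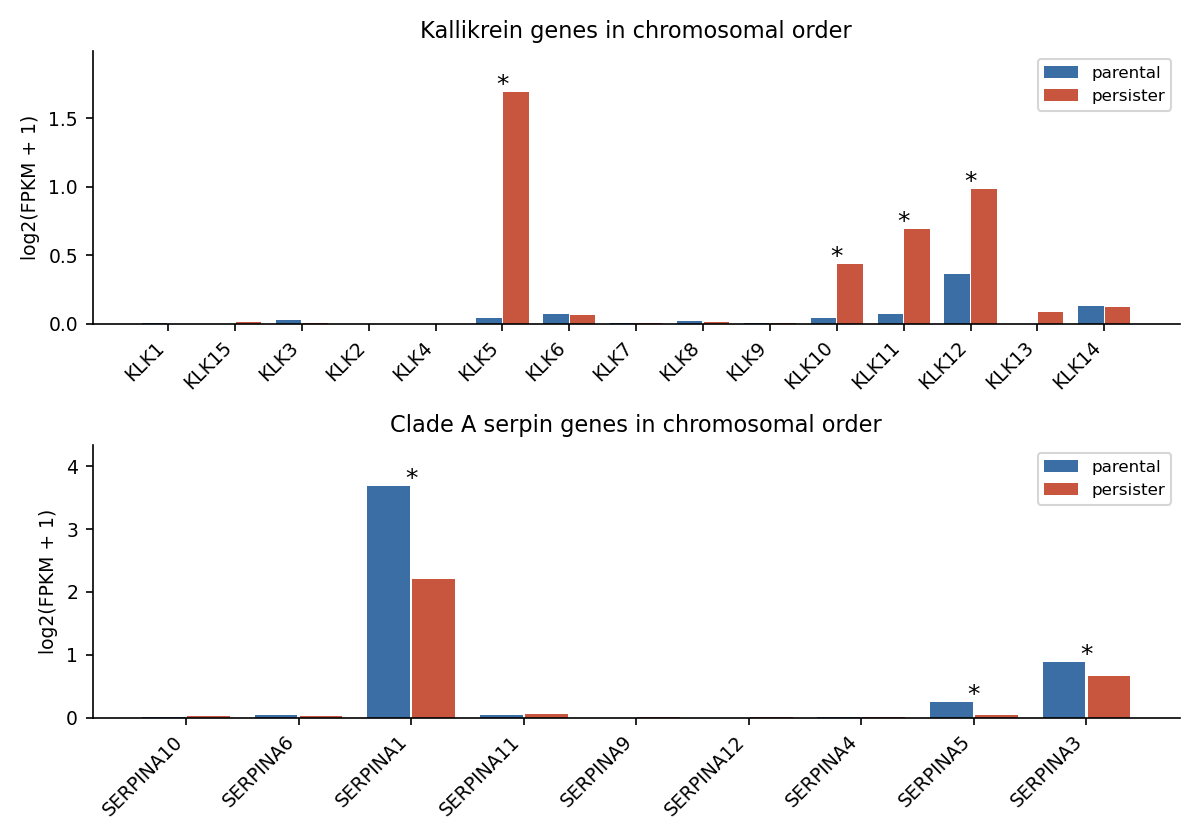
Levels as log2(FPKM + 1), in parental (blue) and persister (red) cells, of 15 kallikrein genes on chromosome 19 and 9 clade A serpin genes on chromosome 14 in their chromosomal order (no distances shown), with bars from 0. Asterisks mark called genes: 4 kallikreins were higher and 3 serpins lower in persister cells.

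The promoter of KLK5 is shown because its gene had the largest rise. The sequence is the 250 bases before the start of transcription on the minus strand, from RefSeq (GRCh38.p14, chr19:50953039-50953288), a build other than the hg18 of the deposited values:
KLK5 promoter: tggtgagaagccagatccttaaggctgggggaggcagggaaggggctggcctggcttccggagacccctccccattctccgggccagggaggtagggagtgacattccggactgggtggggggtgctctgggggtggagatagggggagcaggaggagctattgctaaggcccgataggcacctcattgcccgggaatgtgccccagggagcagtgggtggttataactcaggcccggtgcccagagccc
It holds 6 CpG pairs and none of the motifs searched. These were, on both strands, the forkhead core GTAAACA, the AP-1 site TGANTCA, and the ETS site CCGGAAGT, and on the gene's strand the TATA box TATAAA. None lay in the 6 windows of KLK5, KLK10, KLK11 and KLK12 either, which says only that these letters are not in these windows.

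The trypsinogens went the other way. PRSS1, cationic trypsinogen of the pancreas, fell from 1.39 to 0.00336 FPKM (log2 difference -1.25; q = 0.00146 in the authors' deposited table). PRSS2, anionic trypsinogen, fell from 1.77 to 0.00749 FPKM (log2 difference -1.46; q = 1.47e-05 in the authors' deposited table). PRSS3, the third human trypsinogen, was at 0.0278 and 0.0403 FPKM and was not tested. PRSS1 and PRSS2 share a small part of their 50-base words. Of those of the PRSS1 transcripts, 4.13% also occur in PRSS2. Of those of PRSS2, 6.48% occur in PRSS1 and 10.65% in any other gene. How such reads were divided between them is not stated, so the 2 values are not fully separate.

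The promoters of PRSS1 and PRSS2 are shown because the genes fell together and lie side by side on chromosome 7, and that of SPINK8 because it had the largest fall of all members. Each is the 250 bases before the start, from RefSeq (GRCh38.p14): PRSS1 at chr7:142749222-142749471 (plus strand), PRSS2 at chr7:142770720-142770969 (plus strand) and SPINK8 at chr3:48333662-48333911 (minus strand). Capitals mark matches to the AP-1 site and the TATA box:
PRSS1 promoter: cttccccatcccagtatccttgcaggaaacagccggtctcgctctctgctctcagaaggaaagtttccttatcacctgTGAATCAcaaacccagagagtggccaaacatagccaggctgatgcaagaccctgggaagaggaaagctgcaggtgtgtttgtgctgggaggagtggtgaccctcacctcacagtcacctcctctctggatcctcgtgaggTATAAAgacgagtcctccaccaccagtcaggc
PRSS2 promoter: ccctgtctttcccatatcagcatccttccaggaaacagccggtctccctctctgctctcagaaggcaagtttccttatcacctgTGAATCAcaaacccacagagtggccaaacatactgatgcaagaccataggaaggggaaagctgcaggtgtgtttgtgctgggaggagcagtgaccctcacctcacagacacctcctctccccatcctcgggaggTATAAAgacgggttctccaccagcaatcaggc
SPINK8 promoter: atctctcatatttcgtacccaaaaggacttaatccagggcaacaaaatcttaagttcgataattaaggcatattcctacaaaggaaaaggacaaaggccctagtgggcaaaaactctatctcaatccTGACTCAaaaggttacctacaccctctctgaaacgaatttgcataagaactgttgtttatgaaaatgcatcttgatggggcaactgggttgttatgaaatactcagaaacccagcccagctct
The PRSS1 and PRSS2 sequences were 86.7% identical over their alignment. Both hold the AP-1 match TGAATCA, 172 and 166 bases before the start, and a TATA box match 32 bases before it. SPINK8 holds the AP-1 match TGACTCA 123 bases before its start. An AP-1 match lies in 6.57% of all 35116 promoter windows of this length and a TATA box match in 6.80%. Windows were found for 12 of the 15 genes called higher and 10 of the 15 called lower. AP-1 matches lay in 0 of those 12 genes and in 3 of those 10. Over all members they lay in 17 of 113 windows, from 16 of 83 genes, and 13 of these genes were not called or not tested. PRSS3, which was not tested, holds the same TGAATCA match 173 bases before its start. A match is a description of the sequence and not evidence of binding.

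Of the remaining PRSS proteases, 4 were called higher. Over the whole PRSS family, with PRSS1, PRSS2 and PRSS8, 4 of 10 tested genes were called higher and 3 lower. The shares of all tested genes were 30.9% and 39.0%. PRSS37 and PRSS50, both called higher, reached the lowest level of a tested gene, 0.0656 FPKM, only in persister cells. PRSS23, a secreted protease, rose from 35.2 to 43.0 FPKM (log2 difference 0.28), and PRSS22, a tryptase of airway and other epithelia, from 16.2 to 20.7 FPKM (log2 difference 0.33). These changes were small but at levels far above those of the kallikreins. PRSS23 shares 11.93% of its exon bases with FZD4 on the other strand, which was at 5.47 and 4.94 FPKM. PRSS37, known from testis, rose from 0.0231 to 0.330 FPKM. PRSS50, also known from testis, rose from 0.0115 to 0.0880 FPKM, but shares 37.6% of its exon bases with another gene model on the same strand.

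Some PRSS genes with readable levels were not called. PRSS53 was at 1.49 and 1.14 FPKM (q = 0.286 in the authors' deposited table). Its exons overlap those of ZNF646 on the other strand (14.03%) and of another gene model on the same strand (35.54%). PRSS27 was at 0.457 and 0.424 FPKM and PRSS36 at 0.186 and 0.147 FPKM.

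**Figure D4:**
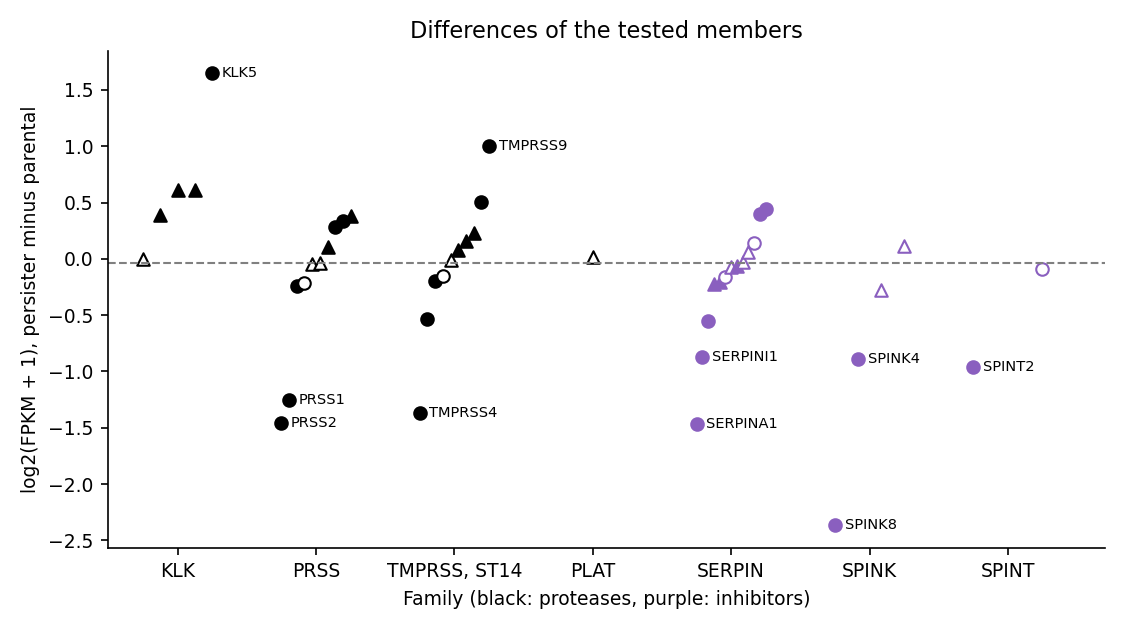
Difference in log2(FPKM + 1), persister minus parental, of each tested protease (black) and inhibitor (purple) by family. Filled symbols were called, circles reached 1 FPKM in 1 or both groups and triangles did not, and the dashed line is the median of all tested genes (-0.04). KLK5 lies highest and SPINK8 lowest.

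Kazal inhibitors of the SPINK family had 2 of 4 tested genes called lower and 0 higher, beside 39.0% and 30.9% of all tested genes. SPINK8 fell from 6.94 to 0.541 FPKM (log2 difference -2.37), the 125th largest fall of all tested genes. SPINK4, known from goblet cells of the gut, fell from 1.51 to 0.356 FPKM (log2 difference -0.89). SPINK1, the trypsin inhibitor of the pancreas, was listed at 0 in parental and at 0.0834 FPKM in persister cells and lay just outside the threshold (q = 0.0614 in the authors' deposited table). SPINK14 was at 0.238 and 0.0237 FPKM and was not called. SPINK5, the skin inhibitor of KLK5 known as LEKTI, was not tested and lay at 0.00394 and 0.00415 FPKM. The rise of KLK5 was thus seen in cells with almost no transcript of that inhibitor in either group.

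Among serpins, 6 of 13 tested genes were called lower (46.2%) and 2 higher (15.4%). Of all tested genes, 39.0% were lower and 30.9% higher. SERPINA1, the antitrypsin that blocks neutrophil elastase, fell from 11.8 to 3.64 FPKM (log2 difference -1.47), the largest fall of the family. SERPINA3, antichymotrypsin, fell from 0.843 to 0.577 FPKM, and SERPINA5, the protein C inhibitor, from 0.190 to 0.0311 FPKM. All 3 clade A serpins tested were thus called lower, and the 7 others of the clade were not tested. For SERPINA3, 31.8% of the exon bases are shared with another gene model on the same strand.

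The intracellular clade B serpins were less uniform. SERPINB6, which inhibits cathepsin G, fell from 35.0 to 23.5 FPKM (log2 difference -0.56) and was the most abundant serpin in both groups. SERPINB9, the granzyme B inhibitor, was called lower at 0.0933 and 0.0493 FPKM (log2 difference -0.06), but was higher by 0.056 after the median of genes with at least 1 FPKM was subtracted. With equal FPKM sums (-0.11) or a pseudocount of 0.1 (-0.37) it stayed lower. SERPINB1, an inhibitor of neutrophil proteases, was at 2.80 and 3.20 FPKM, and SERPINB8, which inhibits furin, at 1.28 and 1.04 FPKM, neither of them called. SERPINB5, known as maspin, was at 0.153 and 0.0966 FPKM and lay just outside the threshold (q = 0.0564 in the authors' deposited table).

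The serpins that act on thrombin and plasminogen activators moved both ways. SERPINE2, protease nexin-1, rose from 0.570 to 1.07 FPKM (log2 difference 0.40). SERPINF1, a secreted factor known as PEDF, rose from 1.10 to 1.86 FPKM (log2 difference 0.45), although it does not inhibit proteases. SERPINI1, neuroserpin, an inhibitor of tissue plasminogen activator, fell from 2.08 to 0.687 FPKM (log2 difference -0.87). SERPINF2, the plasmin inhibitor, was at 0.0881 and 0.132 FPKM and was not called.

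Plasminogen activation genes themselves were low. PLAT, tissue plasminogen activator, was at 0.616 and 0.630 FPKM and was not called (q = 0.883 in the authors' deposited table). PLAU, urokinase, was at 0.0172 and 0.00846 FPKM and was not tested. Its receptor PLAUR was at 1.22 and 1.03 FPKM and was not called (q = 0.220 in the authors' deposited table). Neither activator reached 1 FPKM in either group.

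Genes around these pathways, listed by function, moved in both directions. Of 9 tested plasmin partners, 5 were called higher (55.6%) and 4 lower (44.4%), with a median of 0.27. Of all tested genes, 30.9% were higher and 39.0% lower. ITGAV, on this list at 12.4 and 12.3 FPKM, counts as not tested. VTN, which encodes vitronectin, a binder of the urokinase receptor, rose from 0.393 to 2.83 FPKM. ANXA2 and S100A10, which together bind plasminogen activator and plasminogen at the cell surface, were called higher, at 76.0 and 111 FPKM for ANXA2 and at 60.7 and 87.6 FPKM for S100A10. ENO1, a glycolytic enzyme that also binds plasminogen, fell from 306 to 209 FPKM.

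Of 10 tested partners of matriptase and prostasin, 4 were called higher (40.0%) and 2 lower (20.0%), with a median of -0.01. The shares of all tested genes were 30.9% and 39.0%. The sodium channel subunit SCNN1G rose from 0.0688 to 1.93 FPKM and SCNN1B from 0.801 to 2.33 FPKM, whereas SCNN1A fell from 52.3 to 43.2 FPKM, a fall of 0.27 that is smaller than the 0.36 by which the rescaling to equal FPKM sums raises well expressed genes, so its direction turns under that scaling. MST1, which encodes the growth factor MSP, rose from 0.802 to 3.53 FPKM, a value to which closely related copies of the gene could add reads. EPCAM, an adhesion molecule cut by matriptase, fell from 144 to 89.6 FPKM. The PAR2 gene F2RL1 was at 1.85 and 2.09 FPKM and was not called. Of 3 tested protease-activated receptors, 2 were called lower and 0 higher, beside 39.0% and 30.9% of all tested genes. F2R, the thrombin receptor PAR1, fell from 2.14 to 1.14 FPKM and F2RL3 from 0.736 to 0.435 FPKM.

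Other protease inhibitors, outside the families above, were mostly lower. Of 13 tested, 10 were called lower (76.9%) and 2 higher (15.4%), with a median of -0.31. Of all tested genes, 39.0% were lower and 30.9% higher. PEBP1 and CSTB, called lower with log2 differences of -0.18 each, changed by less than the 0.36 shift of equal FPKM sums. Their direction thus turns under that scaling. SLPI, a secreted inhibitor of elastase, fell from 47.1 to 6.76 FPKM (log2 difference -2.63). The cystatins CSTA and CST4, which inhibit cysteine proteases, were called lower, CSTA at 2.51 and 0.0552 FPKM and CST4 at 85.6 and 32.2 FPKM. TIMP2, an inhibitor of matrix metalloproteases, rose from 3.40 to 8.37 FPKM. The 2 inhibitors called higher on this list, TIMP2 and TIMP3, both act on metalloproteases; TIMP3, at 0.0151 and 0.217 FPKM, was named after its values were seen.

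The other 60 genes of the families were not tested, and none exceeded 0.0619 FPKM in either group. They comprise 34 proteases and 26 inhibitors, and 11 of them were listed at 0 in both groups. A listed 0 can be a failed estimate, since ERBB2 itself, amplified in this line, is listed at 0 in both groups. Of 10 clade B serpins on chromosome 18, 2 were tested (SERPINB5 and SERPINB8) and 0 called. Of 5 TMPRSS11 genes on chromosome 4, 1 was tested, TMPRSS11E.

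Among members with a promoter window, those under 1 FPKM had fewer CpG pairs by the median. The median was 3 CpG pairs per 250-base window over 89 windows of 66 members under 1 FPKM, 8 over 24 windows of 17 members that reached 1 FPKM, and 11 over all windows. Windows were found for 17 of the 25 members that reached 1 FPKM, and not for the abundant SPINT2, PRSS8 and ST14. These windows share genes and neighbours, and the counts are a description.

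Of the 8 luminal markers, 7 were above 1 FPKM in both groups and ERBB2 was listed at 0. Of the 7, 5 were called lower and 2 higher, with a median difference of -0.43. The keratins KRT8, KRT18 and KRT19 stayed at 328 FPKM or more although all were called lower, by 0.37, 0.55 and 0.43 on the log2 scale, while GATA3 rose from 14.1 to 43.3 FPKM and ESR1 from 12.4 to 18.2 FPKM. Of the 6 fibroblast markers, COL1A1 was at 13.4 and 8.73 FPKM and the others at 0.0164 FPKM or less. The 5 immune markers summed to 2.61 and 2.09 FPKM, nearly all of it CD68, and the 4 endothelial markers to 1.10 and 0.136 FPKM. The part of such transcripts in the results above was not tested.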

How the data were processed

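RNA of 2 parental and 3 persister libraries was sequenced from kits that do not keep strand, per the labels' protocols. Build hg18 and the tools Cuffdiff 2.0.2, Cufflinks, TopHat2 2.0.6 and CASAVA 1.8 are listed, with no settings, in the processing notes of the submitters. The authors deposited 1 FPKM value per gene and group and a q-value (adjusted p-value) for their comparison, per the file headers; its adjustment and the scaling between libraries are not given in the sources used here. Their fold change column was not used. With no counts, depth and replicate spread are unknown, so no interval or SD is given. That the samples came from separate cultures is not stated beyond the submitters' word biological, so p-values measure the spread between these libraries.

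Where a symbol stood on more rows, that with the highest mean FPKM was kept. Calls used the deposited q-value under 0.05 among genes with a q-value below 1. Differences are log2(FPKM + 1). The pseudocount of 1 understates changes of low genes. Counting was tested on simulated data. Promoter windows (RefSeq, GRCh38.p14) were found by symbol for 83 of 106 members, 103 were placed in RefSeq gene order and 105 matched GENCODE, used for exon overlap and shared 50-base words. Named were all members that reached 1 FPKM or were called, and up to 4 called genes of each partner list by size of difference; others were chosen after their values were seen. Members, lists and rules were chosen with earlier results of these data known. Python 3.11.15 with pandas 2.3.3 and numpy 2.4.6 was used. One untested member that remains in the counts is not reported here by name.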

Additional observations from a re-analysis of the deposited data

How the results depend on the processing

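No paired analysis was possible because the table holds 1 value per group, and for the same reason no library could be left out. With a minimum log2 difference of 1, calls went from 15 higher and 15 lower members to 2 and 5 (proteases 2 and 3, inhibitors 0 and 2). With at least 1 FPKM in 1 or both groups, 7 members and 5 proteases were called higher. A q-value threshold of 0.01 and both scalings left each count within 1.5 times of its value. The protease median of 0.04 became 0.16 with a pseudocount of 0.1, -0.20 with the 1 FPKM minimum, 0.16 relative to the all-gene median (-0.12 over genes of at least 1 FPKM in both groups) and 0.27 with equal FPKM sums. The inhibitor median of -0.16 became -0.37, -0.56, -0.048 and -0.11 under the same settings. Equal FPKM sums, a shift of 0.36 for well expressed genes, reversed PRSS8 to 0.11 and TMPRSS13 to 0.12, and subtracting the all-gene median reversed SERPINB9 to 0.056, a gene under 0.1 FPKM that stayed lower with equal sums and with a pseudocount of 0.1. The other 27 called members kept their direction under the pseudocount and both scalings; the 1 FPKM minimum removed 11 called members. The low values of many members limit what can be read: 81 of 106 stayed under 1 FPKM in both groups.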
